A study of Mus musculus with 12 samples.

Results

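Genes of interferon reception and signalling were followed in BNL CL.2 cells, a mouse line derived from embryonic liver. The 9 genes were chosen by name, with earlier results of these data known. They are the receptor chains Ifnar1, Ifnar2 and Ifngr1, the transcription factors Stat2, Irf9, Irf7 and Irf1, and the negative regulators Usp18 and Socs1. All 9 had at least 1 probe set that named no other gene, 13 probe sets in all, and they are 9 of the 18194 genes that could be compared. The study measured total RNA on 12 Affymetrix mouse arrays, 3 in each of 4 groups, after 24 h of culture in DMEM with serum. In the group called alone, the insert above the cells held more BNL CL.2 cells. Cells of the group FAC received ferric ammonium citrate, which supplies soluble iron, at 100 micromolar. The group RAW shared its medium with RAW 264.7 cells, a transformed mouse macrophage line, in the insert, and RAW_FAC had both the macrophages and the iron salt. All values are log2 signals, so a difference of 1 is a doubling, and the replicate numbers 1 to 3 are those in the sample titles.

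Type I interferons bind a receptor made of the IFNAR1 and IFNAR2 chains, and the kinases attached to it phosphorylate STAT2. It joins IRF9 in the complex ISGF3, which binds interferon-stimulated response elements (ISRE) and raises the transcription of antiviral genes, among them those for IRF7, USP18, STAT2 and IRF9 themselves. Interferon gamma binds another receptor with the IFNGR1 chain, acts through gamma-activated sites (GAS) and raises IRF1. USP18 and SOCS1 are made in response and dampen the signal, USP18 at IFNAR2 and SOCS1 at the kinases. In the liver, both macrophages and hepatocytes respond to interferons.

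Promoter stretches are shown to let the motifs be read in the members that hold one close to the gene start. RefSeq windows of 300 bases, from 250 before to 50 after the start in the build GRCm38.p6, were found for 8 of the 9 genes, in 10 windows, and Usp18 had none. Both strands were searched for an ISRE core, GAAANNGAA, and a GAS, TTCNNNGAA, each 9 letters long. Capitals mark the matches, with 20 bases on either side.
Ifnar1: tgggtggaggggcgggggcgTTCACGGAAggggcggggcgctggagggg
Ifnar2: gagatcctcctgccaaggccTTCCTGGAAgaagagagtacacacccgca
Stat2: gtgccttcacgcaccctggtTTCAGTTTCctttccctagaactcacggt
Irf1: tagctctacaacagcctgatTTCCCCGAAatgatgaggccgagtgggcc
Socs1: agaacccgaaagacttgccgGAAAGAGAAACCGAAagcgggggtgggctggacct
The Ifnar1 stretch, chr16:91485190-91485238 on the plus strand, has a GAS whose first base lies 5 bases before the start. In the Ifnar2 stretch, chr16:91372549-91372597 on the plus strand, the GAS begins 214 bases before the start. The GAS of Irf1, chr11:53769904-53769952 on the plus strand, begins 90 bases before the start. Stat2 has an ISRE core on the opposite strand at chr10:128270257-128270305 (the printed strand is plus), 221 bases before the start. Socs1, chr16:10785585-10785639 on the minus strand, has 2 overlapping ISRE cores that begin 83 and 77 bases before the start. An ISRE core was present in 8.56% of all 32851 windows and a GAS in 8.30%, so a match is a description of the letters. Irf9, Irf7 and Ifngr1 had no match in their windows.

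The receptor chains differed little between the groups. Ifnar1 (probe set 1449026_at) read 8.85, 8.93 and 8.77 in alone, 8.82, 9.01 and 8.89 in FAC, 8.80, 8.84 and 8.71 in RAW, and 8.88, 9.05 and 8.82 in RAW_FAC, for replicates 1, 2 and 3. The ranges of the 4 groups overlapped. With macrophages, averaged over the cultures with and without iron, Ifnar1 differed by -0.03 (standard error, SE, 0.056; 95% interval -0.15 to 0.09), and limma gave an adjusted p of 1.00. A dimmer Ifnar1 probe set (1442222_at) gave -0.08 (SE 0.073) for the same difference and did not pass either.

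Ifnar2, the chain that USP18 acts on (probe set 1451462_a_at), read 10.04, 9.96 and 10.17 in alone, 10.06, 10.23 and 10.29 in FAC, 9.86, 10.08 and 10.14 in RAW, and 10.12, 10.31 and 10.35 in RAW_FAC. Each FAC or RAW_FAC array read higher than the array of the same number without iron, in 6 of 6 same-number pairs, although the ranges of the groups overlapped. Its average macrophage difference was 0.02 (SE 0.069; 95% interval -0.13 to 0.17; limma, adjusted p = 1.00). The dimmer Ifnar2 probe sets gave 0.13 (1427691_a_at, SE 0.068) and 0.16 (1440169_x_at, SE 0.088), the latter above 0 in 6 of 6 same-number pairs, and neither passed (limma, adjusted p = 1.00 for both). Ifngr1, the ligand-binding chain of the interferon gamma receptor (probe set 1448167_at), read from 10.72 to 11.20 over the 12 arrays. Its average macrophage difference was -0.04 (SE 0.070; 95% interval -0.19 to 0.11; limma, adjusted p = 1.00).

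Irf9, the DNA-binding subunit of ISGF3, was the member with the clearest difference. Its only probe set (1421322_a_at) read 7.11, 7.11 and 7.00 in alone and 7.15, 7.20 and 6.74 in FAC. With macrophages it read 7.81, 8.58 and 8.78 in RAW and 8.25, 8.42 and 8.91 in RAW_FAC. The 6 arrays with macrophages all lay above the 6 without them, and the arrays numbered 1 were lowest and those numbered 3 highest in both macrophage groups. The group means were 7.07 ± 0.067 in alone, 7.03 ± 0.25 in FAC, 8.39 ± 0.52 in RAW and 8.52 ± 0.34 in RAW_FAC (SD, n = 3).

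Averaged over both iron conditions, Irf9 rose by 1.41 with macrophages, which is 2.65-fold (SE 0.157; 95% interval 1.07 to 1.75; limma, adjusted p = 0.0125 over 18194 genes). It was the 1 of 9 members called higher, against 0.011% of all genes, which is Irf9 and Trim21. With the replicate number as a block in the model, the adjusted p of Irf9 in limma was 0.0160, and 0.055% of all genes were called higher. No gene was called lower in either fit (0%), while 292 without the block and 557 with it were lower at an unadjusted p under 0.05. The average call was sensitive to single arrays: in limma it was lost on leaving out alone 1, alone 2, alone 3, FAC 3 or RAW 2, with adjusted p of 0.0569 to 0.0759. With the block it was lost on leaving out alone 2, alone 3, FAC 2, RAW 2, RAW 3, RAW_FAC 2 or RAW_FAC 3 (limma, adjusted p of 0.0643 to 0.121). Without the block the change of Irf9 lay between 1.31 and 1.55 over the 12 arrays left out in turn.

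The 3 contrasts of a macrophage group with a group without macrophages gave Irf9 differences of similar size, and a call in 1 of them, with the block. RAW against alone gave 1.31 (SE 0.222; limma, adjusted p = 0.479, and 0.585 with the block). RAW_FAC against FAC gave 1.50 (SE 0.222; limma, adjusted p = 0.265, and 0.220 with the block). In RAW_FAC against alone Irf9 differed by 1.45 (SE 0.222; limma, adjusted p = 0.192), and it passed with the block (limma, adjusted p = 0.0395). That call held without FAC 1, FAC 3, RAW 1 or RAW 3 and was lost on leaving out any other array. Leaving out RAW 1, the lowest of the macrophage arrays for Irf9, gave adjusted p in limma of 0.0179 in RAW against alone and 0.0117 in RAW_FAC against FAC. These contrasts share arrays, so their values are set side by side and not counted as separate evidence.

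Stat2, the STAT partner of IRF9 in ISGF3, had a smaller difference that did not pass. Its brighter probe set (1421911_at) read 5.68, 5.69 and 5.63 in alone, 5.65, 5.77 and 5.93 in FAC, 5.52, 5.85 and 6.11 in RAW, and 5.75, 6.05 and 6.51 in RAW_FAC. RAW 1 read below all the arrays of alone, and RAW_FAC 3 read highest of the 12. The readings of alone lay near the array medians of 5.63 to 5.68, and RAW 1 lay below them. The average macrophage difference was 0.24 (SE 0.120; limma, adjusted p = 1.00, and 0.578 with the block), and 0.14 without RAW_FAC 3. It was 0.37 with number 1 left out of all groups and 0.10 with number 3 left out. The second Stat2 probe set (1450403_at) gave 0.25 (SE 0.078) for the same comparison. All its readings lay below the array medians of 5.63 to 5.68, and whether they were above background is not given by the values.

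**Figure D1:**
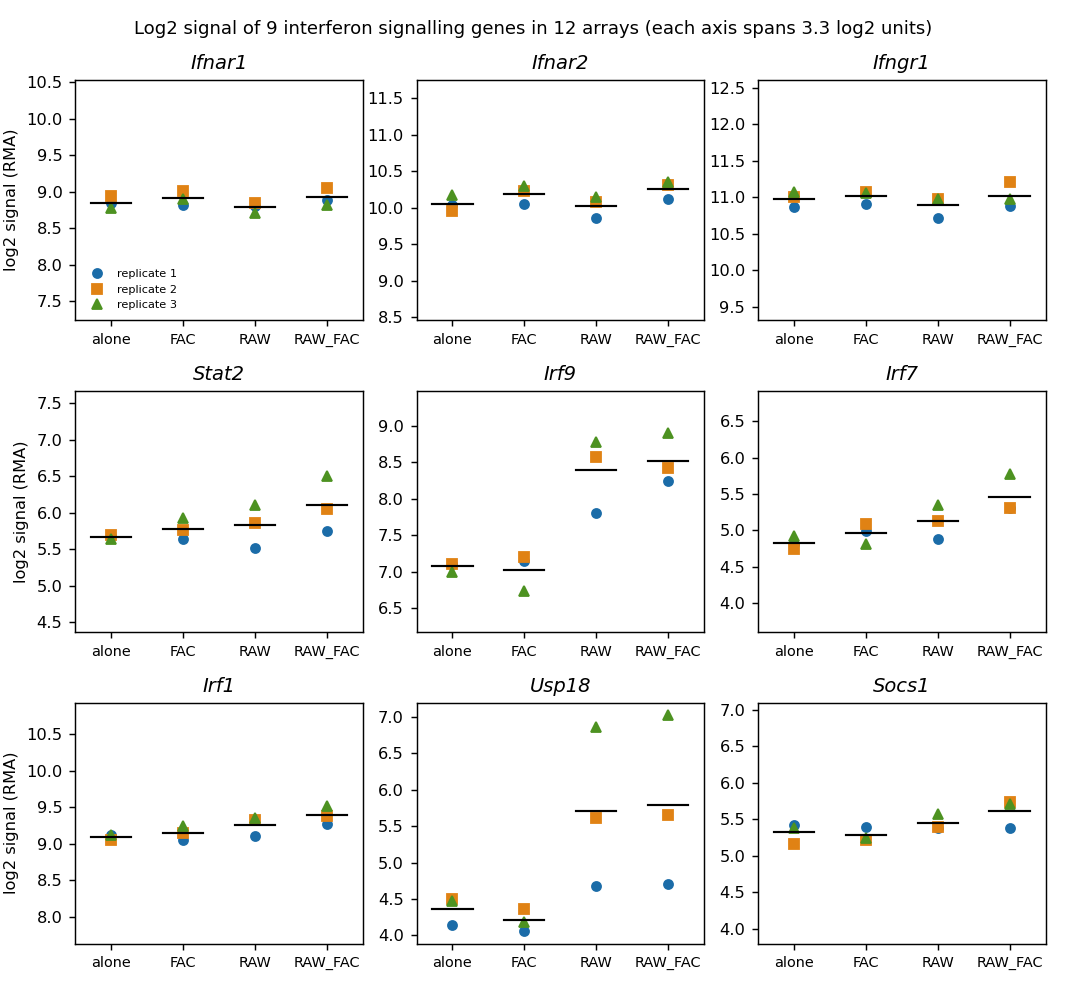
Log2 signal (vertical axis, RMA values) of the 9 genes in the groups alone, FAC, RAW and RAW_FAC, 1 point per array with the replicate number as its symbol and the group mean as a line. Irf9 and Usp18 have all 6 macrophage arrays above the 6 others, with number 1 lowest and number 3 highest in RAW and RAW_FAC, while the receptor chains stay within ranges of 0.34 to 0.49.

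Irf7, the factor that amplifies type I interferon production (probe set 1417244_a_at), read 4.82, 4.74 and 4.93 in alone, 4.99, 5.08 and 4.82 in FAC, 4.89, 5.14 and 5.35 in RAW, and 5.31, 5.30 and 5.77 in RAW_FAC. The 3 arrays of RAW_FAC lay above all the others except RAW 3. All arrays but RAW_FAC 3 read below the array medians of 5.63 to 5.68, and whether they were above background is not given by the values. Its average macrophage difference was 0.40 (SE 0.096; limma, adjusted p = 0.713, and 0.254 with the block). In RAW_FAC against alone it was 0.63 (SE 0.136; limma, adjusted p = 0.552, and 0.0885 with the block), and with the block Irf7 passed on leaving out FAC 3 (limma, adjusted p = 0.0358).

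Irf1, the interferon gamma-induced factor (probe set 1448436_a_at), read 9.12, 9.04 and 9.12 in alone, 9.05, 9.15 and 9.25 in FAC, 9.11, 9.32 and 9.35 in RAW, and 9.26, 9.38 and 9.51 in RAW_FAC. RAW_FAC lay above alone and FAC without overlap, while RAW overlapped both. The average macrophage difference of Irf1 was 0.20 (SE 0.060; limma, adjusted p = 1.00, and 0.261 with the block).

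The negative regulators did not pass either, and they differed in how far their arrays spread. Usp18 (probe set 1418191_at) read 4.14, 4.49 and 4.47 in alone and 4.06, 4.36 and 4.19 in FAC. With macrophages it read 4.68, 5.60 and 6.85 in RAW and 4.70, 5.65 and 7.02 in RAW_FAC. All 6 macrophage arrays were above the 6 others, and the SD was 0.20 in alone and 0.15 in FAC but 1.09 in RAW and 1.16 in RAW_FAC (n = 3).

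The average macrophage difference of Usp18 was 1.46 (SE 0.369; 95% interval 0.67 to 2.26). Its signals without macrophages lay below the array medians of 5.63 to 5.68, and whether they were above background is not given by the values. The limma adjusted p was 0.795, and 0.139 with the block, so Usp18 was not called at either setting. Without the 4 arrays numbered 3 the difference was 0.89. RAW against alone gave 1.34 for Usp18, and 0.77 without RAW 3, and RAW_FAC against FAC gave 1.58, and 0.97 without RAW_FAC 3.

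Socs1, the inhibitor of the JAK kinases (probe set 1450446_a_at), read 5.42, 5.16 and 5.39 in alone, 5.39, 5.22 and 5.24 in FAC, 5.39, 5.39 and 5.57 in RAW, and 5.38, 5.73 and 5.72 in RAW_FAC. RAW_FAC 2 and RAW_FAC 3 were the highest of the 12, and RAW_FAC 1 lay within the range of alone. All arrays but RAW_FAC 2 and RAW_FAC 3 read below the array medians of 5.63 to 5.68, and whether they were above background is not given by the values. The average macrophage difference was 0.23 (SE 0.074; limma, adjusted p = 1.00, and 0.538 with the block).

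**Figure D2:**
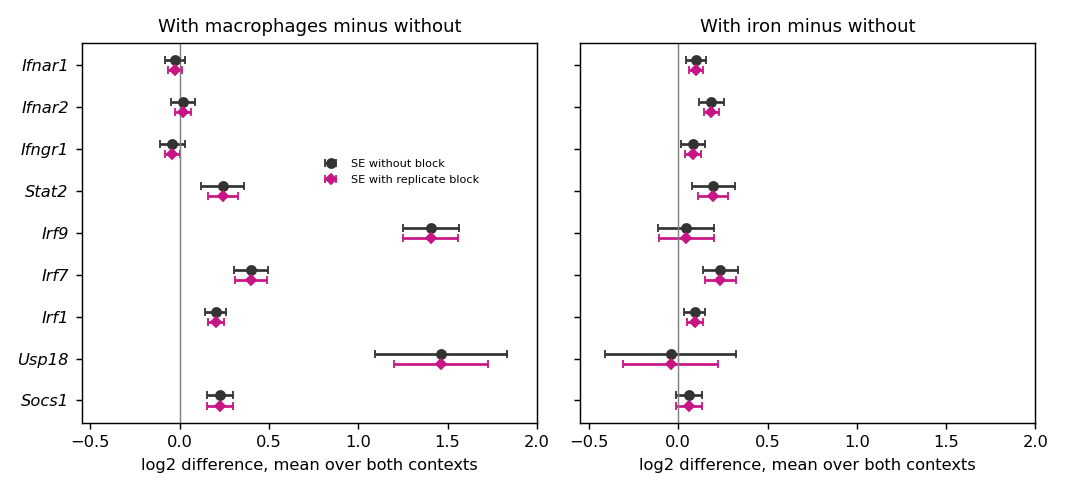
Log2 difference with minus without macrophages (left) and with minus without iron (right), each averaged over both settings of the other factor, for the 9 genes, with bars of 1 SE from the fits without and with the replicate block. Irf9 at 1.41 and Usp18 at 1.46 lie furthest to the right with macrophages, and the iron differences lie between -0.04 and 0.24.

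In order of group means, neighbouring groups did not overlap only for Irf9 and Usp18, between alone and RAW. Both had the order FAC, alone, RAW, RAW_FAC. Stat2, Irf7 and Irf1 had the order alone, FAC, RAW, RAW_FAC, with overlap between each pair of neighbours. Socs1 ran FAC, alone, RAW, RAW_FAC, and the 3 receptor chains RAW, alone, FAC, RAW_FAC, also with overlap at each step.

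Taking groups 2 at a time, the 3 RAW arrays lay above the 3 of alone for 2 of 9 members, Irf9 and Usp18, against 5.16% of all genes. RAW_FAC lay above FAC for 4 of 9, Irf9, Irf7, Irf1 and Usp18, against 3.63% of all genes. RAW_FAC lay above alone for 5 of 9, these and Stat2, against 4.67%. Since the members were chosen with earlier results of these data known, their shares beside those of all genes are a description. No gene passed in RAW against alone or in RAW_FAC against FAC in limma, with or without the block, in either direction (0%). At an unadjusted p under 0.05 without the block, RAW against alone had 475 genes higher and 218 lower, and 3 of the 9 members were among the higher. RAW_FAC against FAC had 315 higher and 259 lower in the same way, with 5 of the 9 members among the higher. A share of about 0.05 of all genes reaches such a p where nothing differs, so all counts at an unadjusted p are a description.

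In RAW_FAC against alone no gene passed in limma without the block, with 496 higher and 391 lower at an unadjusted p under 0.05. With the block, 0.143% of genes were called higher and 0.0605% lower, and Irf9 was the 1 member called, higher. The macrophage differences were above 0 in 7 of 9 members, with a median of 0.23, where 53.8% of all genes were above 0 and their median was 0.01.

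The size of the macrophage difference followed the replicate number for Irf9, Usp18 and Stat2. A same-number difference is an array with macrophages minus the array of equal number and equal iron setting without them. For Irf9 the differences of numbers 1, 2 and 3 were 0.69, 1.47 and 1.79 without iron, and 1.10, 1.22 and 2.17 with iron. The number 3 pair was largest both times. For Usp18 they were 0.54, 1.11 and 2.38 without iron and 0.64, 1.29 and 2.82 with it. Number 1 gave the smallest Usp18 difference and number 3 the largest in both settings.

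Stat2 gave -0.16, 0.16 and 0.47 without iron, and 0.11, 0.28 and 0.58 with it, so its difference without iron had opposite signs in numbers 1 and 3. Irf7 gave 0.07, 0.39 and 0.43 without iron and 0.32, 0.22 and 0.96 with it, all 6 above 0. For Irf1 they were -0.01, 0.27 and 0.23, and with iron 0.21, 0.23 and 0.27. Socs1 gave -0.03, 0.23 and 0.19, and with iron -0.01, 0.51 and 0.48, near 0 in number 1 both times. Smallest in number 1 and largest in number 3 in both settings held for 3 of 9 members and for 2.84% of all genes. All 6 pairs were higher with macrophages for 3 of 9 members, Irf9, Irf7 and Usp18, against 3.09% of all genes. What the numbers stand for is not given in the labels, and an additive block does not model a difference that varies by number.

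**Figure D3:**
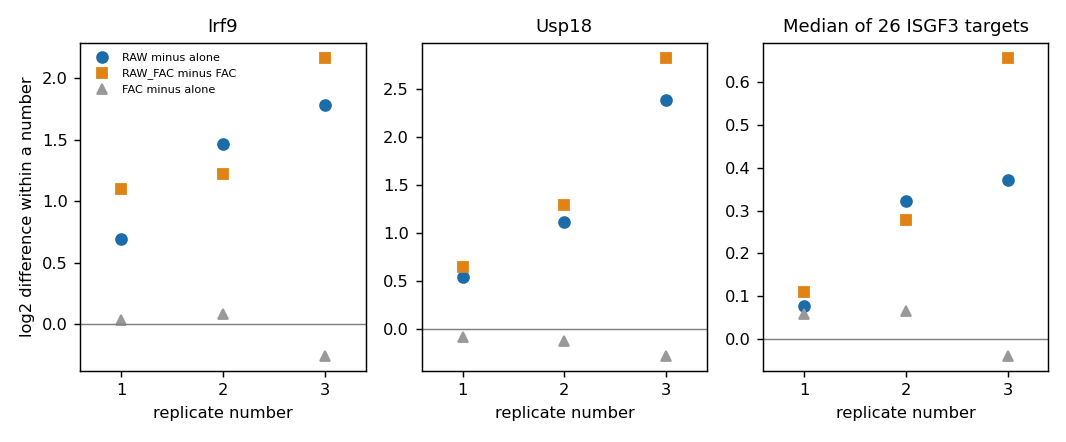
Same-number log2 differences (vertical axis, scales differ between panels) by replicate number for Irf9, Usp18 and the median of 26 ISGF3 target genes, with RAW minus alone as circles, RAW_FAC minus FAC as squares and FAC minus alone as triangles. The macrophage differences of Irf9 and Usp18 are smallest in number 1 and largest in number 3 in both settings, while FAC minus alone lies between -0.28 and 0.09 for both genes.

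Iron alone left the 9 genes near their levels in alone. In FAC against alone the differences ran from -0.16 in Usp18 to 0.14 in Ifnar2. No member passed in limma with or without the block, where 0% of genes were called without the block and 0.022% were higher and 0.011% lower with it. None of the 9 reached an unadjusted p under 0.05 in either fit, which 305 genes without the block did as higher and 246 as lower. The FAC arrays lay above those of alone for 0 of 9 members, against 3.74% of all genes.

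With macrophages present, all 9 members read higher on average with iron, from 0.08 in Usp18 to 0.34 in Irf7, and 50.0% of all genes did. None passed in limma: Irf7 had an adjusted p of 0.849 (SE 0.136), or 0.354 with the block, and Ifnar2, at 0.23 (SE 0.097), had 0.849 and 0.229. Without the block 0% of genes were called and 527 were higher and 511 lower at an unadjusted p under 0.05. With it 0.0605% of genes were called higher and 0.0165% lower. RAW_FAC lay above RAW for 0 of 9 members, against 4.48% of all genes.

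Averaged over both macrophage settings, the iron difference was 0.24 in Irf7 (SE 0.096; limma, adjusted p = 0.721, and 0.300 with the block). For Ifnar2 it was 0.19 (SE 0.069; limma, adjusted p = 0.706, and 0.105 with the block). Ifnar2 was the 1 of 9 members higher with iron in 6 of 6 same-number pairs, against 4.14% of all genes. Its 2 dimmer probe sets, 1427691_a_at and 1440169_x_at, gave iron differences of 0.01 (SE 0.068) and -0.01 (SE 0.088), so the probe sets of Ifnar2 disagree. The other 7 members lay between -0.04 and 0.20. No member was called in limma in either fit, where without the block 0% of genes were higher and 0.0055% lower, and with it 0.638% were higher and 0.154% lower.

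Whether the macrophage difference depended on iron was tested as the interaction, RAW_FAC minus FAC less RAW minus alone. It was above 0 for all 9 members, from 0.07 in Irf1 to 0.24 in Usp18, and for 54.3% of all genes. None of the 18194 genes passed in limma with or without the block (0%), while 168 without the block were higher and 372 lower at an unadjusted p under 0.05. The 95% interval of Irf9 ran from -0.50 to 0.86 and that of Usp18 from -1.35 to 1.84. A shift of the size of the macrophage difference itself therefore lies within the interval for Usp18.

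The rest of the receptor and JAK-STAT machinery gave no call. Of 25 further receptor, kinase, STAT, IRF and inhibitor genes listed, 23 were measured, and 0 passed in limma in the average macrophage comparison in either fit. Their median difference was 0.01 and their range -0.10 to 0.13, with Jak1, a kinase of both receptors, at -0.10 (SE 0.075) and Cish, a SOCS family inhibitor, at 0.13 (SE 0.091). Of 19 interferon genes 10 were measured, and 0 passed, with a median of 0.01. Ifnb1 group means were 5.34 to 5.44 and those of Ifng 3.27 to 3.43. These means, and those of Ifna11 and Ifna2, lay below the array medians of 5.63 to 5.68. Whether these interferon genes were above background is not given by the values. The 2 largest interferon differences were 0.13 in Ifna11 (SE 0.073) and 0.09 in Ifna2 (SE 0.060), and the near-identical interferon alpha genes may share probe signal.

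Of 20 genes of nucleic acid sensing, 16 were measured. In the average macrophage comparison 0 of them passed in limma without the block and 2 with it: Ddx58, the RNA sensor RIG-I, and Ifih1, the RNA sensor MDA5. Ddx58 was higher by 1.06 (SE 0.150 with the block; limma, adjusted p = 0.0493 with the block and 0.539 without). Ifih1 was higher by 0.93 (SE 0.119 with the block; limma, adjusted p = 0.0358 with the block and 0.509 without). The median of the 16 was 0.06. Both calls were lost with the block on leaving out any array numbered 2 or 3 of the 4 groups.

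Of 28 ISGF3 targets, 26 were measured, and Isg15 and Ifi44 were not. In the average macrophage comparison 24 lay above 0, against 53.8% of all genes. Their median was 0.27, against 0.01 for all genes. The list was chosen with earlier results of these data known. Trim21, an antibody receptor and ubiquitin ligase, rose by 0.67 (SE 0.088; limma, adjusted p = 0.0349, and 0.0160 with the block). Xaf1, an interferon-induced regulator of cell death, differed by 2.52 (SE 0.414), the largest of the list, and passed with the block (limma, adjusted p = 0.0428) and not without it (0.185). Rtp4, at 2.31 (SE 0.487), did not pass (limma, adjusted p = 0.539, and 0.0580 with the block), and neither did Parp14 at 0.87 (SE 0.224). The count of ISGF3 targets called without the block was 0 on leaving out any 1 of 10 arrays, 5 without RAW 1 and 2 without RAW_FAC 1.

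Of the 10 genes called with the block in the average macrophage comparison, 1 was a member (Irf9), 2 were ISGF3 targets and 2 sensors. The rest were on none of these lists: Mndal, Trim14 and the chemokine genes Ccl2, Ccl7 and Cxcl1. Over the same 26 ISGF3 targets, the median same-number differences of numbers 1, 2 and 3 were 0.08, 0.32 and 0.37 without iron, and 0.11, 0.28 and 0.66 with it. The arrays of number 1 had the smallest median in both settings.

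**Figure D4:**
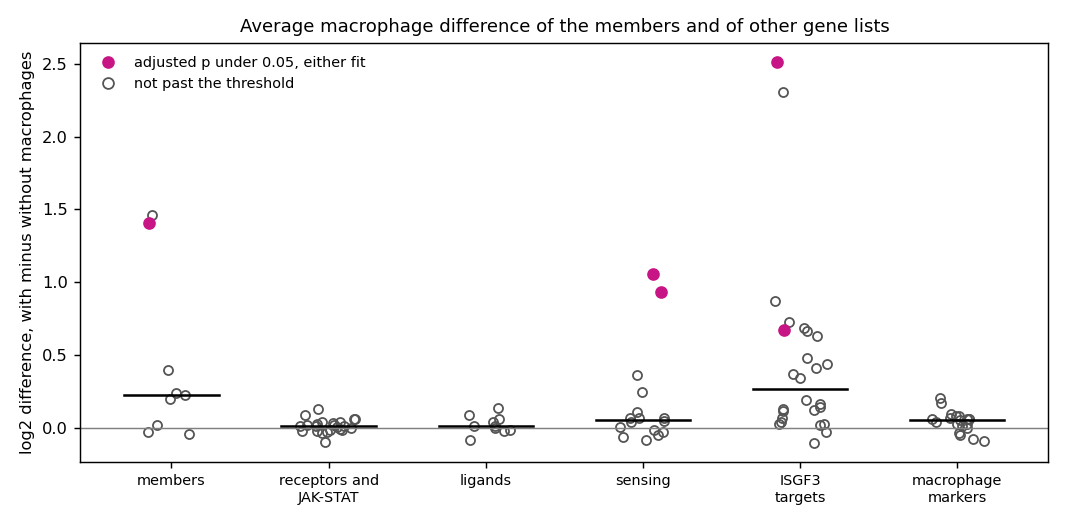
Average log2 difference with minus without macrophages (vertical axis) for each measured gene of the 9 members and of 5 other lists, with the list median as a line and genes past an adjusted p of 0.05 in limma, with or without the replicate block, filled. Irf9 is the 1 filled member, sensing and ISGF3 targets have 2 filled genes each, and the receptor, ligand and macrophage marker genes lie between -0.10 and 0.21.

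Markers of macrophages were read beside these values, since RNA of the insert cells would carry their own transcripts. Of 20 macrophage markers, all measured, 0 passed in limma in the average macrophage comparison in either fit, and their median was 0.06. The log2 of their summed signal was 12.22 to 12.37 in alone, 12.22 to 12.40 in FAC, 12.22 to 12.30 in RAW and 12.31 to 12.44 in RAW_FAC. Cd14 alone made up 80.2% to 84.6% of that sum in every group. Over the other 19 markers the log2 sum was 9.67 to 9.75 in alone, 9.67 to 9.79 in FAC, 9.70 to 9.88 in RAW and 9.80 to 9.81 in RAW_FAC. RAW overlapped alone and RAW_FAC lay just above FAC, and the part of these sums in the members' differences was not tested. Ptprc, the leukocyte antigen CD45, lay between 3.32 and 3.72 over the 12 arrays, Adgre1 between 4.74 and 5.21 and Itgam (CD11b) between 3.49 and 3.98, while Cd14 lay between 11.9 and 12.2. The same-number medians of the markers reached at most 0.08 without iron and 0.05 with it. The highest single differences were 0.21 in Cd53 (SE 0.118) and 0.17 in Lyz2 (SE 0.102). In bulk RNA, fewer cells of a type and less RNA per cell cannot be told apart.

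The liver label was read from the levels of some markers only. The epithelial keratins Krt8 and Krt18 had means of 14.3 and 14.1 in alone, Cdh1 12.7 and the liver factor Hnf4a 10.6. Alb, the defining hepatocyte secretory product, had a mean of 5.19, below the array medians of 5.63 to 5.68, and the hepatocyte products Ttr and Apoa1 had 6.50 and 6.13. Of the 10 fibroblast markers, Vim had a mean of 14.2 and the collagens Col1a1 and Col3a1 had 4.82 and 4.31.

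Genes whose signals ran most like each member over the 12 arrays are given as a description, since all 12 share the groups and replicate numbers. Irf9 was closest to Mndal, Xaf1 and Igtp (Pearson r = 0.972, 0.968 and 0.954), and Usp18 to Igtp, Rtp4 and Helz2 (0.976, 0.976 and 0.975). Stat2 was closest to H2-K1, Nfkb2 and Trip10 (0.939, 0.924 and 0.923) and Irf7 to Trim25, Tor1aip1 and Parp12 (0.937, 0.912 and 0.907). For Irf1 they were Parp12, Irgm2 and Cxcl16 (0.945, 0.940 and 0.937), and for Socs1 Csrnp3, Irgm1 and Atmin (0.887, 0.864 and 0.864). Ifnar2 was closest to Abcc1, Tnfrsf1a and Cyb5r1 (0.954, 0.951 and 0.937), and Ifngr1 to Lypd6b, Zadh2 and Edem3 (0.935, 0.930 and 0.929). Ifnar1 varied less over the arrays than the median gene and had none named. Among the members, Irf9 and Usp18 had r = 0.896, and Stat2 and Irf1 had r = 0.911.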

How the data were processed

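The 12 samples, 3 in each group, were hybridised to Affymetrix mouse arrays. Log2 signals were deposited, made by the authors with RMA in affy according to the submitters' processing notes, with versions not given in the sources used here. Per the platform annotation 1 symbol belonged to 34958 of 45101 probe sets, several to 932 and none to 9211. For genes with more than 1, the probe set with the highest mean was used, which gave 18194 genes. The number of arrays limits the precision.

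All 12 arrays entered 1 model with a mean for each group in limma 3.58.1 in R 4.3.3 (lmFit, eBayes), two-sided, Benjamini-Hochberg adjusted over all genes, threshold 0.05. Average effects are means over both settings of the other factor. The fit was tested on simulated data. Plots used Python 3.11.15 with matplotlib 3.10.9. Same-number arrays had residuals that correlated at 0.26 to 0.53 in 18 pairs, and different numbers at -0.35 to -0.01 in 36, so the replicate number was also fitted as a block; the numbers come from the titles. The labels do not say that replicates came from separate cultures, and p values thus measure only the spread between these samples, which may be technical.

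The members and lists were chosen with earlier results of these data known. Named were the 9 members. Of each list, up to 4 genes per comparison with the largest change among those past the threshold were named, or at most 2 where none passed. For each member that varied more than the median gene, the 3 genes of highest correlation were named. Rtp4, Parp14, Ifnb1, Ifng, the called genes outside the lists and the cell type markers given by level were named after their values were seen. Alternatives were the block, a fit to the compared groups alone, quantile normalization, centred medians, a filter on the mean, the mean of all probe sets, moderation with trend and robust, and leaving out arrays. Some items are not reported here.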

Additional observations from a re-analysis of the deposited data

Results flagged for a closer look

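Usp18 moved in opposite directions with iron in the 2 macrophage settings. Without macrophages, FAC minus alone was -0.08, -0.13 and -0.28 in the pairs numbered 1, 2 and 3, below 0 in 3 of 3. With macrophages, RAW_FAC minus RAW was 0.02, 0.05 and 0.16, above 0 in 3 of 3. The interaction was 0.24 (SE 0.74 without and 0.53 with the replicate block; limma, adjusted p = 1.00), so the difference between the settings was within the spread of the arrays.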

How the results depend on the processing

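Under the alternatives a member call was lost 17 times and gained 16 times, and none changed sign with a call. All 17 losses were of Irf9 in the average macrophage effect, the only member call without the block. The gains were mostly of Irf9, and the others were of Ifnar2, Irf1 and Irf7. The results below are counts past an adjusted p of 0.05 in limma. With the replicate block, FAC against alone had 4 genes higher and 2 lower (13 and 3 with genes of low mean also left out, 2 and 2 with the mean of all probe sets, 4 and 1 with quantile normalization). RAW_FAC against RAW had 11 higher and 3 lower with the block (64 and 12, 7 and 2, 8 and 4 in the same order), and RAW_FAC against alone 26 and 11 (76 and 30, 26 and 7, 21 and 12). In RAW_FAC against alone 1 member, Irf9, was called with the block, also with quantile normalization or the mean of all probe sets, and 2 with the filter, which added Irf1 (adjusted p = 0.0426). RAW_FAC against FAC had 1 gene higher with the block and quantile normalization and 1 with the block and the filter. The average macrophage effect had 10 genes higher with the block (14 with the filter, and 2 lower, 6 with the mean of all probe sets, 8 with quantile normalization). With trend and robust it had 1 gene and 0 members, as Irf9 then had an adjusted p of 0.0644. The average iron effect had 116 higher and 28 lower with the block (229 and 104 with the filter, 120 and 37 with the mean of all probe sets, 122 and 44 with quantile normalization). With the block and the filter 1 member was called with iron, Ifnar2 (adjusted p = 0.0332). Without the block 1 gene was higher with iron with centred medians, with the filter and with trend and robust, and 0 were lower with the mean of all probe sets and with trend and robust. The filter on the mean removes Stat2, Irf7, Usp18 and Socs1, which therefore have no value there.

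Leaving out arrays singly or by number, with and without the block, gave 0 to 3 genes higher and 0 to 1 lower in FAC against alone, and 0 to 2 higher in RAW against alone. RAW_FAC against RAW gave 0 to 15 higher and 0 to 5 lower, and RAW_FAC against FAC 0 to 9 higher. RAW_FAC against alone gave 0 to 58 higher, 0 to 14 lower and 0 to 2 members. The average macrophage effect gave 0 to 44 higher, 0 to 9 lower and 0 to 1 members, with 0 members where number 2 or number 3 was left out of all groups. Members called ran from 0 to 1 in RAW against alone and in RAW_FAC against FAC, where the 1 was Irf9 without RAW 1. The average iron effect gave 0 to 88 higher and 0 to 23 lower. The cause of these moves was not tested. The combinations with the block, the leaving out of whole numbers and the marker sum without Cd14 were chosen after seeing the data. The median residual SD over all genes was 0.109, and members could vary more than that. With 3 arrays a group, the average macrophage differences of Stat2, Irf1 and Socs1 did not pass after adjustment over 18194 genes. The larger ones of Irf7 and Usp18 did not pass either.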
